A study of Mus musculus with 27 samples.

Results

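The data give 23279 genes in each library, and 10 immediate early genes among them were taken by name: Fos, Fosb, Jun, Junb, Egr1, Egr2, Egr3, Atf3, Ier2 and Ier3. All 10 were found and all 10 were among the 14438 genes tested. Egr2 and Egr3 reached the level filter (at least 1 CPM in at least 3 libraries; CPM expresses each gene's reads per 1000000 reads on all genes) only through the ES-derived libraries, so that both had to differ once they passed, and counts over the members are read with this in mind.

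Immediate early genes are genes whose transcription rises within minutes of a stimulus without the need for new protein synthesis. Growth factors, serum and stress act through MAP kinase cascades on transcription factors that already sit on their promoters (serum response factor with its ternary complex partners, and the CREB and ATF family), and the messenger RNAs are short-lived. Many of the products are themselves transcription factors: the Fos and Jun proteins pair to form AP-1, and the Egr proteins are zinc-finger activators. In dissociated tissues the same genes are known to rise while cells are taken apart and held in suspension.

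The RNA-seq compared limb bud-like mesenchyme grown from mouse embryonic stem cells (ES–LB) with tissue cut from mouse embryos. The stem cells were of the line EB5 Hand2::GFP +/-, which carries the reporter Hand2::mEGFP in one copy of Hand2, a limb bud transcription factor gene. Aggregates were cultured for 9 days with BMP4 and Matrigel and later with hydrocortisone, LDN193189 and Wnt3. The forelimb type (ES–FLB, 3 libraries) received retinoic acid and the hindlimb type (ES–HLB, 3 libraries) its antagonist AGN193109. Cells of 96 aggregates were trypsinized, filtered and sorted for the reporter before RNA extraction. The embryonic groups were Slc:ICR forelimb and hindlimb buds labelled E10.0 (here early FLB and early HLB, 3 libraries each), forelimb and hindlimb buds at E10.5 (3 and 2 libraries), and branchial arch (BA), cardiac tissue (Ca) and tail bud (TB) at E10.5 with 3 libraries each. The labels and some parts of the study's text give different stages for the early limb buds, and the word early is used for that reason. The study's methods give 3 embryos as the source of the tissue, which may mean each library or all of them. No dissociation or sorting step is described for the tissue libraries. Every ES–LB library was thus dissociated, sorted, cultured and of another strain, and every embryonic library was none of these: these causes cannot be told apart here. In bulk RNA, more RNA per cell and more cells with the RNA cannot be told apart either.

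One library, replicate 2 of E10.5 HLB, was left out because it lists 0 for genes of several chromosomes. It lists 0 for Junb and Ier2, which both other replicates hold. The 26 libraries used held between 5543747 and 22142313 reads on genes, as inferred from the smallest steps between CPM values, with the early limb buds the deepest. Nothing in the labels says whether replicates of one group came from separate cultures or litters, so the p-values measure the spread between libraries, which may be technical. Hand2, the sorted gene, was between 141 and 245 CPM in the 6 ES–LB libraries and between 0.817 and 185 CPM in tissue, with group means of 156 and 236 CPM in ES–FLB and ES–HLB against 159 in BA, 150.4 in E10.5 FLB and 149 in Ca. The 6 limb bud mesenchyme markers Prrx1, Hand2, Pdgfra, Twist1, Msx1 and Fgf10 summed to between 1843 and 1964 CPM in ES–LB, above each of the 20 tissue libraries (339 to 1636 CPM), but 2 of the 6 were at least 2-fold lower than in the early bud of the same limb in each type. Msx1 had means of 42.0 and 75.2 CPM in ES–FLB and ES–HLB against 212 and 203 CPM in early FLB and early HLB.

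Promoter sequences were searched for motifs of the factors named above, as a description of the members. RefSeq promoter windows (GRCm38.p6) were at hand for Fos, Fosb, Jun, Junb, Egr2, Atf3 and Ier3. The 250 bases before the annotated start are printed for 4 of them, chosen because each holds at least one of the motifs searched and they span the Fos, Jun, Egr and ATF members: Fos (chr12:85473640-85473889, plus strand), Junb (chr8:84978749-84978998, minus strand), Egr2 (chr10:67537619-67537868, plus strand, a window inside an intron of longer Egr2 transcripts) and Atf3 (chr1:191183334-191183583, minus strand). Each reads 5′ to 3′ on the gene's strand, and capitals mark the motifs found.
Fos: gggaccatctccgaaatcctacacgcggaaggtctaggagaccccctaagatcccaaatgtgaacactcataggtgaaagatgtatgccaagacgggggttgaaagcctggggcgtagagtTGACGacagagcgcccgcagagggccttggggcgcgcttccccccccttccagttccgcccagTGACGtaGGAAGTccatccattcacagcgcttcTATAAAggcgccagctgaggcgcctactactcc
Junb: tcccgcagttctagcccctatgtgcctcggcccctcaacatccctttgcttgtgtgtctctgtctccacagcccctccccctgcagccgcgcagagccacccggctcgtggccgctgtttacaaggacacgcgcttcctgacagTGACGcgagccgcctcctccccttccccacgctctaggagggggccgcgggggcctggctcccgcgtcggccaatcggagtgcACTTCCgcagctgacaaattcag
Egr2: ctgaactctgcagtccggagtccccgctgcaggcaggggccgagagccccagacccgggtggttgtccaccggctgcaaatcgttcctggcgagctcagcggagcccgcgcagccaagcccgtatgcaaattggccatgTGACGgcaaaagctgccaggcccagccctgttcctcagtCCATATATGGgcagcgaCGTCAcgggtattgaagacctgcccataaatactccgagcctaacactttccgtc
Atf3: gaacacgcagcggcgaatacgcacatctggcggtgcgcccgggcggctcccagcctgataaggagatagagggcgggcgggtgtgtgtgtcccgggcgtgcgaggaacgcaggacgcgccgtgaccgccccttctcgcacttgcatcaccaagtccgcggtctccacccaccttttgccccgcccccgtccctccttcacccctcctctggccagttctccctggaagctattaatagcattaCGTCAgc

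In all, 6 motifs were searched on both strands. The half-site of the cAMP response element, TGACG, bound by CREB and ATF proteins, stood in these 4 windows and in that of Fosb, while 17.8% of all 32851 promoter windows of this length hold it. In Fos it began 129 and 66 bases before the start. The second of these was followed at 59 bases by the Ets motif GGAAGT, which was searched for the ternary complex factors. At 33 bases stood the TATA box TATAAA, and 19.7% and 12.4% of all windows hold these motifs. Junb held the Ets motif 23 bases before its start. The CArG box, the serum response factor site, was found among these genes only in the windows of Egr2, and 1.47% of all windows hold it. In the window printed it stood 72 bases before the start, between 2 half-sites at 111 and 55 bases. Bases further upstream were not searched, so Fos and the other members may hold the box outside their windows. Egr1, Egr3 and Ier2 had no window and were not searched. The Egr motif (GCGGGGGCG or GCGTGGGCG, 3.06% of all windows) stood in the window of Fosb, and the AP-1 motif (TGACTCA or TGAGTCA, 4.46% of all windows) in none of the members' windows. The windows of Jun and Ier3 held none of the 6. These are matches of letters in 11 windows of 7 genes and show neither binding nor its absence.

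The question put to the data was whether the immediate early genes stood at another level in the sorted ES–LB cells than in whole embryonic tissue. Of the 10 members, 9 were higher in ES–LB than in the mean of the 7 embryonic groups by at least 2-fold (limma, adjusted p below the threshold of 0.05), where 11.4% of all genes tested were. The remaining member, Atf3, was lower by less than 2-fold, and 83.1% of all genes passed the threshold in one direction or the other without the 2-fold limit. The median change was 2.93 on the log2 scale for the 10 members and -0.01 for all genes tested. In 8 of the 10, every ES–LB library lay above every tissue library, which held for 12% of all genes. Egr2 and Egr3 are among these 8 and had to differ, since they reached the filter only through ES–LB. Atf3 and Ier3 were the members whose groups overlapped. Without Egr2 and Egr3, which the filter itself favoured, 7 of 8 members were at least 2-fold higher.

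**Figure D1:**
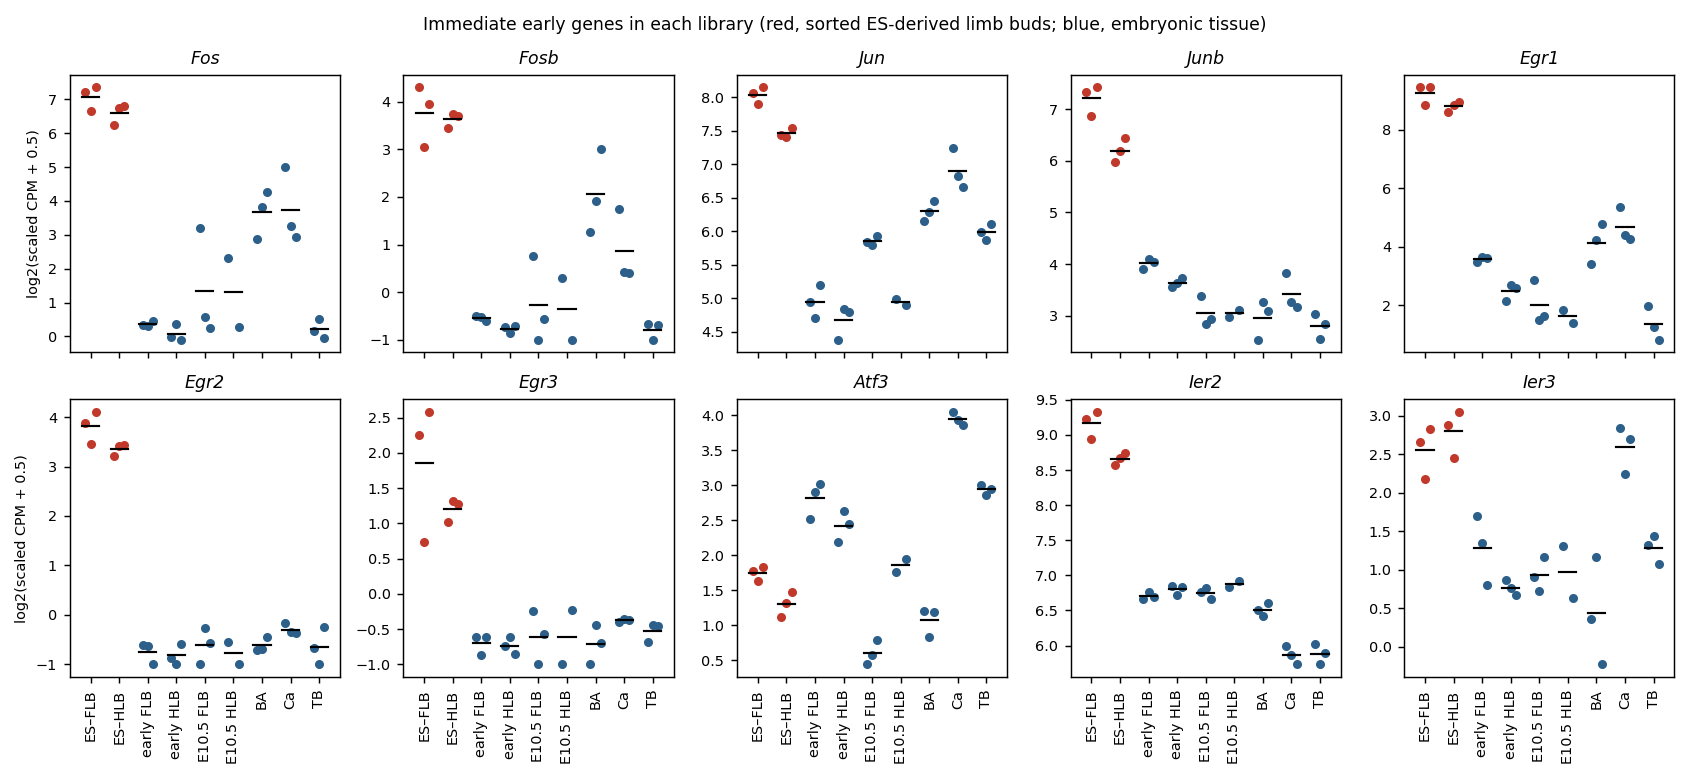
Level of each immediate early gene in each of the 26 libraries, as log2(scaled CPM + 0.5), by group on the horizontal axis. Points are libraries (red for ES–LB, blue for embryonic tissue) and the black lines are group means. The red points stand above all blue points in 8 of the 10 panels, and not for Atf3 and Ier3. Egr2 and Egr3 are among these 8 and reached the level filter only through ES–LB.

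Egr1, a zinc-finger activator and one of the fastest genes to respond to serum, was far higher in ES–LB. It held 706, 460 and 701 CPM in the ES–FLB libraries and 393, 459 and 499 CPM in those of ES–HLB. In the 20 tissue libraries it ranged from 1.26 CPM in TB to 40.2 CPM in Ca, with a median of 6.41 CPM. The lowest ES–LB library thus lay 9.79-fold above the highest tissue library. On the log2(scaled CPM + 0.5) scale, on which all changes below are given, the difference was 6.20 ± 0.23 (SE; 6 against 20 libraries; limma, adjusted p = 6.62e-15), the largest rise of all 14438 genes tested on this scale.

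Fos (chr12:85473890-85477274), the AP-1 subunit best known as a mark of acute stimulation, was at 148, 99.9 and 164 CPM in the ES–FLB libraries and at 75.6, 107 and 112 CPM in those of ES–HLB. Tissue libraries ran from 0.436 CPM in early HLB over a median of 0.906 CPM to 31.4 CPM in Ca. The groups did not overlap. The change was 5.31 ± 0.38 (SE; limma, adjusted p = 2.51e-10), the fifth largest rise of all genes tested on this scale. Its relative Fosb (chr7:19302696-19310118) was at 19.3, 7.79 and 14.99 CPM in the ES–FLB libraries and 10.47, 12.8 and 12.6 CPM in those of ES–HLB. Its tissue values lay between 0 and 7.58 CPM, and the highest of these, in BA, came close to the lowest ES–FLB library. The change of Fosb was 3.67 ± 0.27 (SE; limma, adjusted p = 2.58e-11).

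The Jun partners of AP-1 were higher in ES–LB as well. Junb (chr8:84976909-84978748) held 161, 117 and 172 CPM in the ES–FLB libraries, 62.7, 72.2 and 86.0 CPM in those of ES–HLB, and 5.30 to 16.7 CPM in tissue with a median of 8.78 CPM. The lowest ES–LB library lay 3.76-fold above the highest tissue library, and the change was 3.43 ± 0.11 (SE; limma, adjusted p = 1.81e-18). Jun itself (chr4:95049036-95052222) was at 265, 238 and 283 CPM in the ES–FLB libraries and at 173, 168 and 186 CPM in those of ES–HLB. In tissue Jun ranged from 20.4 to 150.1 CPM with a median of 57.4 CPM, so that the highest tissue library, of Ca, lay just under the lowest ES–HLB library. The change of Jun was 2.09 ± 0.08 (SE; limma, adjusted p = 5.02e-15). Genes on the other strand overlap both: Prdx2 covers 351 bases of Junb and the antisense RNA Junos 689 bases of Jun (GENCODE vM21). The library kit keeps the strand, but whether the counting used it is not given in the sources used here, so part of these values could belong to the overlapping genes.

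Egr2 (chr10:67534469-67542188), known from hindbrain and nerve development, stood near the limit of detection in tissue. It had 14.2, 10.52 and 16.7 CPM in the ES–FLB libraries and 8.81, 10.1 and 10.3 CPM in those of ES–HLB, against 0 to 0.391 CPM in tissue. In 15 of the 20 tissue libraries Egr2 lay below the value of 3 reads. The change of 4.23 ± 0.14 (SE; limma, adjusted p = 2.63e-23) understates such a gene, because 0.5 CPM was added to every value. Pooled over libraries and turned back into reads, Egr2 had 561 reads in ES–LB and 29 in tissue, a ratio of 98.7 after scaling to depth (95% exact binomial interval 67.9 to 149, counting error only). The same ratio was 59.6 for Egr1 (57.0 to 62.3), so the order of Egr1 and Egr2 depends on the scale. Pooling weighted libraries by depth, so each early limb bud library counted for more. With groups weighted alike, the means in ES–LB and tissue were 11.8 and 0.151 CPM for Egr2 and 536 and 10.02 CPM for Egr1. Egr3 (chr14:70077317-70082613) also lay near that limit in tissue, with 4.26, 1.17 and 5.48 CPM in the ES–FLB libraries, 1.53, 1.99 and 1.92 CPM in those of ES–HLB and 0 to 0.353 CPM in tissue. Its change was 2.14 ± 0.18 (SE; limma, adjusted p = 9.7e-13), its pooled reads were 131 and 32, and 17 of the 20 tissue libraries lay below 3 reads.

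Ier2 (chr8:84661331-84662852), a small nuclear protein gene of the same response, was well expressed everywhere. It held 597, 493 and 642 CPM in the ES–FLB libraries and 380, 406 and 429 CPM in those of ES–HLB, while tissue libraries lay between 52.7 and 120.1 CPM with a median of 101 CPM. The change of 2.43 ± 0.05 (SE; limma, adjusted p = 8.31e-25) had the smallest error of the 10 members. Ier3 (chr17:35821713-35822911), whose product acts on cell survival, was at 5.84, 4.03 and 6.58 CPM in the ES–FLB libraries, at 6.90, 4.98 and 7.78 CPM in those of ES–HLB and between 0.355 and 6.65 CPM in tissue. Its ES–LB values overlapped those of Ca, which were 6.65, 4.23 and 6.01 CPM, and stood above the other 17 tissue libraries, of which the highest, in early FLB, had 2.76 CPM. The change over all tissue was 1.49 ± 0.16 (SE; limma, adjusted p = 2.77e-10).

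Atf3 (chr1:191170296-191183333), the stress-induced member of the ATF family, did not go with the rest. It had 2.92, 2.60 and 3.05 CPM in the ES–FLB libraries and 1.66, 1.99 and 2.28 CPM in those of ES–HLB, within the tissue range of 0.855 to 16.0 CPM and below the tissue median of 5.09 CPM. Atf3 was lower in ES–LB by 0.71 ± 0.10 on the log2 scale (SE; limma, adjusted p = 1.12e-07), which is under 2-fold. The embryonic groups spread widely on both sides of it. Ca was highest at a mean of 14.97 CPM, then TB at 7.18, early FLB at 6.60, early HLB at 4.91 and E10.5 HLB at 3.12 CPM, all above ES–FLB at 2.85 and ES–HLB at 1.98 CPM, while BA at 1.62 and E10.5 FLB at 1.02 CPM stood below.

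**Figure D2:**
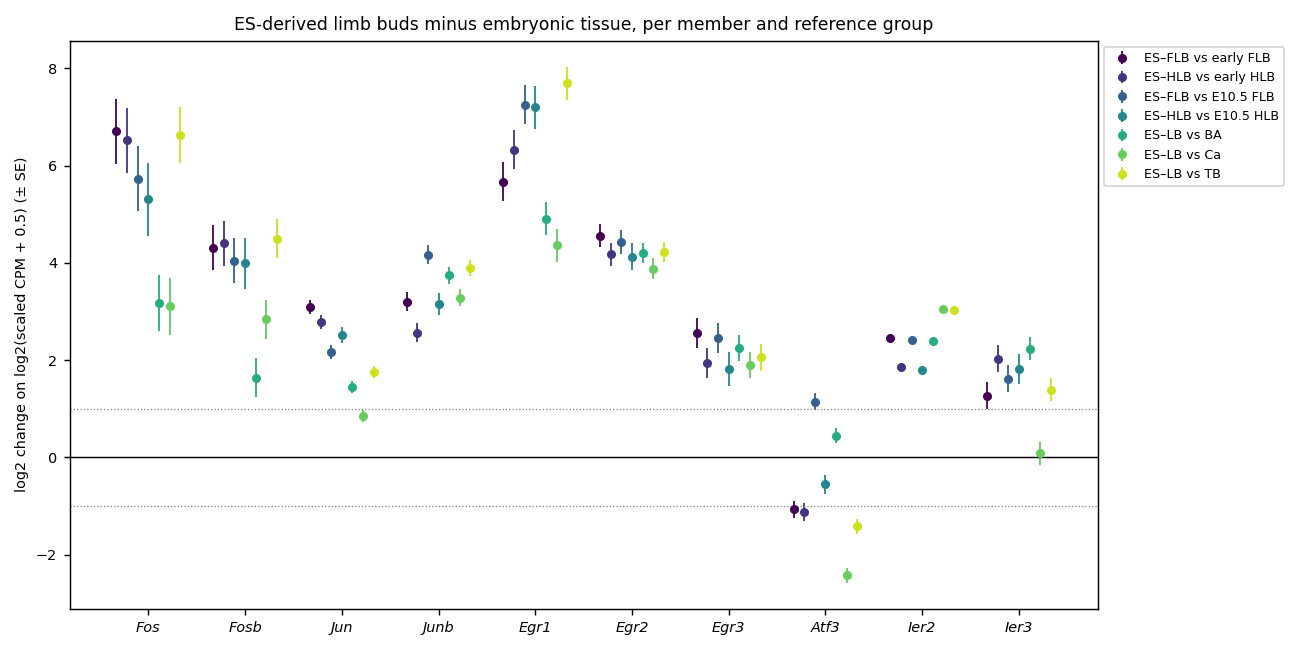
Change of each immediate early gene (log2, ± SE) between ES–LB and 7 embryonic reference groups, 1 colour a comparison. Dotted lines mark 2-fold. Fos, Fosb, Junb, Egr1, Egr2, Egr3 and Ier2 lie above 2-fold against all 7, Jun and Ier3 in 6 of 7, and Atf3 changes sign with the reference. Egr2 and Egr3 reached the level filter only through ES–LB.

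Taking each tissue alone, Fos, Fosb, Junb, Egr1, Egr2, Egr3 and Ier2 were at least 2-fold higher in all 7 comparisons. Of these, Egr2 and Egr3 reached the filter only through ES–LB and so had to differ. Against early FLB, ES–FLB had 9 members higher by at least 2-fold (17.1% of all genes tested) and Atf3 lower (11.4%). ES–HLB against early HLB gave the same counts, 9 higher (16.1%) and 1 lower (8.91%). At E10.5, ES–FLB had all 10 higher (11.4%), since Atf3 there rose by 1.14 ± 0.18 (SE; limma, adjusted p = 1.09e-06), and ES–HLB had 9 higher (14.6%). Without Egr2 and Egr3, the counts of members higher were 7 of 8 against the early bud in both limb types, 8 of 8 for ES–FLB and 7 of 8 for ES–HLB at E10.5. The comparisons that share an ES–LB group share its libraries and are not independent of each other.

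The differences of Fos and Egr1 were smaller against BA and Ca, which held more of both than the limb buds did, while those of Junb and Ier2 lay within or above the range of the limb bud comparisons. Against BA, 9 members were at least 2-fold higher (9.75% of all genes tested), with Fos at 3.18 ± 0.58, Fosb at 1.64 ± 0.40 and Egr1 at 4.91 ± 0.34 on the log2 scale (SE). Against Ca, 7 were at least 2-fold higher (14.6%) and Atf3 was lower by 2.43 ± 0.15 (SE), one of 16.8% of all genes that were at least 2-fold lower there. Jun rose by 0.84 ± 0.12 (SE; limma, adjusted p = 3.9e-06) against Ca, under 2-fold, and Ier3 differed by 0.08 ± 0.24 (SE; limma, adjusted p = 0.756). Against TB, which had the lowest Egr1 mean of all groups, 9 were higher (12.1%) and Atf3 was at least 2-fold lower (9.9%). Egr1 differed there by 7.69 ± 0.34 and Fos by 6.63 ± 0.58 (SE). Without Egr2 and Egr3, 7 of 8 members were higher against BA, 5 of 8 against Ca and 7 of 8 against TB.

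Within the embryo these genes were not level either. A moderated F test over the 7 embryonic groups passed for 8 of the 10 members, where 93.2% of all genes passed. Egr2 and Egr3 did not (limma, adjusted p = 0.453 and 0.919), at levels under 3 reads in most libraries. Ca and BA held the highest embryonic Fos, with group means of 15.9 and 13.1 CPM, followed by E10.5 FLB at 3.47 and E10.5 HLB at 2.61 CPM and by early FLB, TB and early HLB between 0.570 and 0.798 CPM. Each neighbour in that order overlapped the next. Egr1 was also highest in these 2 tissues and then ran otherwise, from 26.5 CPM in Ca and 18.3 in BA over 11.5 in early FLB and 5.16 in early HLB to 2.17 CPM in TB, and the step from early FLB to early HLB was the one without overlap. Fosb differed in that BA led with 4.25 CPM and Ca followed with 1.51 CPM.

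Between the stages, 4 members passed from early to E10.5 FLB (59.1% of all genes tested passed) and 2 from early to E10.5 HLB (28.9%). The early limb buds held 19642275 to 22142313 reads on genes and the E10.5 limb buds used held 5543747 to 5908859. Stage and this difference in sequencing depth cannot be told apart. In the forelimb bud Atf3 fell by 2.21 ± 0.18, Egr1 by 1.58 ± 0.40 and Junb by 0.96 ± 0.20 on the log2 scale, while Jun rose by 0.91 ± 0.14 (SE; limma, adjusted p = 2.28e-12, 0.00218, 0.000188 and 1.92e-05). In the hindlimb bud Atf3 fell by 0.57 ± 0.20 and Junb by 0.60 ± 0.22 (SE; limma, adjusted p = 0.0282 and 0.0439). The Junb call of the hindlimb bud was lost, with adjusted p between 0.0501 and 0.204, when 1 of 12 single libraries was left out, both E10.5 HLB libraries among them, and that of Atf3 when any of 4 was. These are shares below the background, and Ier2 and Ier3 did not pass in either limb.

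**Figure D3:**
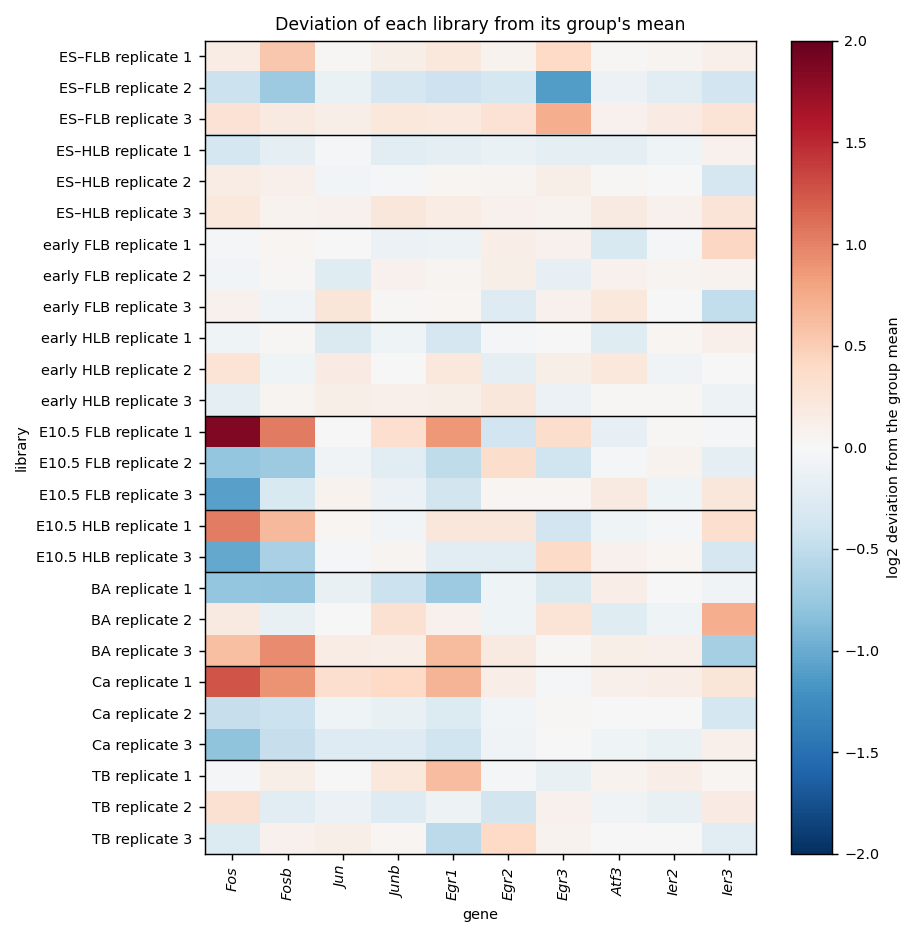
Deviation of each library (rows, by group) from its group's mean for each immediate early gene (columns), on the log2 scale, red above and blue below. Replicate 1 of E10.5 FLB, of E10.5 HLB and of Ca, and replicate 3 of BA, are red for Fos, Fosb and Egr1 together, and replicate 2 of ES–FLB is blue in all 10 columns.

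Replicates of one tissue were far apart for the fastest genes. Fos was at 8.73 CPM in one E10.5 FLB library and at 0.994 and 0.697 CPM in the others, and at 4.52 and 0.705 CPM in the 2 E10.5 HLB libraries. The values of 0.994, 0.697 and 0.705 CPM rest on 6, 4 and 4 reads, close to the floor of 3. In Ca Fos was at 31.4, 9.16 and 7.10 CPM and in BA at 6.88, 13.8 and 18.7 CPM, while early FLB stayed between 0.749 and 0.879 CPM. The SD within groups was 0.83 on the log2 scale for Fos, against a median of 0.22 for the 500 genes closest to it in mean level, and 0.49 against 0.13 for Egr1. Ier2 had 0.11 against 0.07 and Atf3 0.18 against 0.27, so Atf3 varied less than most genes of its level. Mean level here is over all 26 libraries, and the high ES–LB values raise it for Fos and Egr1. Genes matched to these need not share their low counts in tissue.

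Some members moved together from library to library, and most pairs did so weakly. Over the 26 libraries, Pearson r between the deviations of 2 members from their group means had a median of 0.27 over all 45 pairs, from -0.37 to 0.87. Among 4 members picked after the values were seen, Fos, Fosb, Junb and Egr1 had r between 0.62 and 0.87 in their 6 pairs, with Fos and Fosb at 0.87 and Fos and Egr1 at 0.83. Fos had r of 0.40 with Jun, 0.27 with Ier2, 0.23 with Egr3 and -0.05 with Egr2. The points share library and depth, and replicate numbers of different groups did not go together. Atf3 and Ier3 had a median r of 0.13 and 0.12 with the other members. Replicate 1 of Ca was the highest of its group in 9 of 10 members, and replicate 2 of ES–FLB the lowest of its group in all 10: it had 460 CPM of Egr1 against 706 and 701, and 1.17 CPM of Egr3 against 4.26 and 5.48.

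The members were also compared between ES–FLB and ES–HLB. The mean was higher in ES–FLB for 9 of the 10 members, Ier3 being the exception, and all 3 ES–FLB libraries lay above all 3 ES–HLB libraries for 5 members (16.8% of all genes tested). The test was passed by 3 members, where 8.69% of all genes passed as lower in ES–HLB: Junb was lower in ES–HLB by 1.01 ± 0.20, Jun by 0.57 ± 0.14 and Ier2 by 0.50 ± 0.08 on the log2 scale (SE; 3 against 3 libraries; limma, adjusted p = 0.000562, 0.00711 and 4.97e-05). For Fos the difference was -0.47 with a 95% interval from -1.89 to 0.94, and for Egr1 -0.45 with a 95% interval from -1.28 to 0.39, too wide to tell a 2-fold difference from none. Without replicate 2 of ES–FLB, Egr3 also passed, at -1.21 (limma, adjusted p = 0.00191). Atf3 passed without trend and robust (-0.44; adjusted p = 0.0296) and Egr2 when only these 2 groups were fitted (-0.46; limma, adjusted p = 0.0158).

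**Figure D4:**
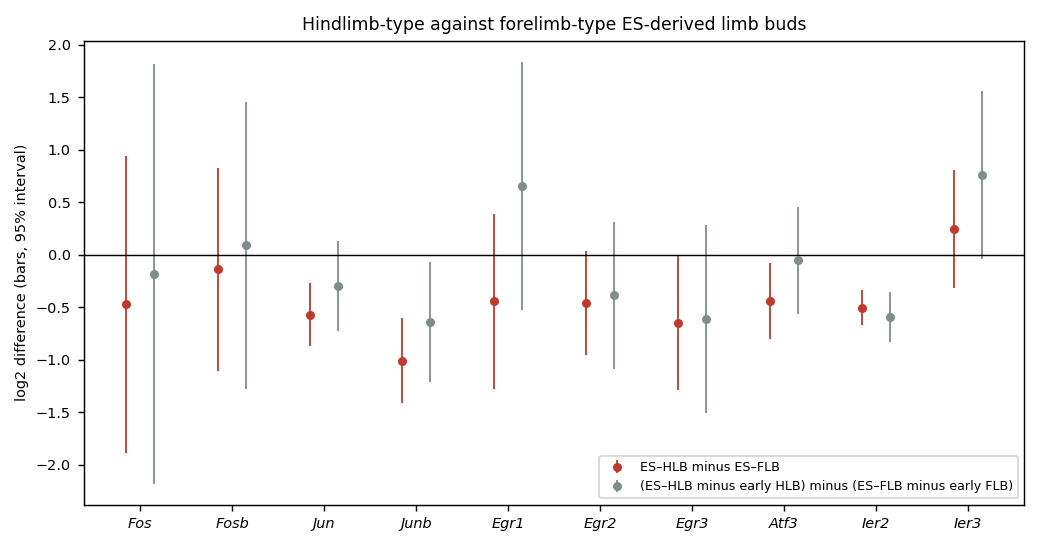
Difference between hindlimb-type and forelimb-type ES–LB for each immediate early gene (red, log2, bars 95% intervals from limma's SE and degrees of freedom), and the same difference after subtracting that between early HLB and early FLB (grey). Red bars clear 0 for Jun, Junb, Egr3, Atf3 and Ier2, of which Jun, Junb and Ier2 passed after adjustment, and Ier2 also did in grey.

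Early HLB and early FLB differed too, so the rise from tissue to ES–LB was compared between the limb types. The test of this was passed by Ier2 alone among the 10 (20.1% of all genes tested passed it). Ier2 rose by 2.46 ± 0.08 in the forelimb type and by 1.86 ± 0.08 in the hindlimb type (SE). The difference was -0.59 ± 0.12 (SE; limma, adjusted p = 0.000487). For Junb the difference was -0.64 ± 0.28 (SE; limma, adjusted p = 0.115). Without replicate 2 of ES–FLB, Junb and Egr3 passed as well, with differences of -0.81 and -1.17. Markers of other cells also moved between the ES–LB types. The 6 pluripotency markers summed to 16.0 to 23.5 CPM in ES–FLB and 67.1 to 97.7 CPM in ES–HLB, and the 6 erythroid markers to 5.61 to 7.92 and 85.0 to 160.4 CPM. Endothelial marker sums were 25.4 to 29.7 in ES–FLB and 38.3 to 43.7 CPM in ES–HLB, epithelial sums 95.4 to 145 and 183 to 196.5 CPM, and macrophage sums 1.09 to 1.95 and 3.32 to 4.27 CPM, again without overlap. Of their 6 markers each, 5, 4 and 2 passed as higher in ES–HLB (11.2% of all genes tested). Their part in the differences between the types was not tested.

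The wider set of genes around the 10 members rose in part. Of 13 other AP-1 family genes tested, 3 were at least 2-fold higher in ES–LB (11.4% of all genes tested) and 1 was lower (7.13%): Fosl2, another partner of Jun, rose by 2.75 ± 0.11, Batf by 1.30 ± 0.15 and Atf5 by 1.04 ± 0.06, and Batf3 fell by 1.06 ± 0.12 (SE). Fosl2 was at 40.6 to 58.9 CPM in ES–LB and 2.71 to 26.8 CPM in tissue. Fosl1 was not tested, at no more than 0.261 CPM in any library. The median of this list was 0.29.

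Of 50 other immediate early genes tested, 16 were at least 2-fold higher (11.4% of all genes tested) and 5 lower (7.13%), with a median of 0.51. Egr4 and Ptgs2, both among the 16 higher, reached the filter only through ES–LB and so had to differ. With the 4 limb bud groups as reference, 3 of the list were lower. Klf4, a zinc-finger factor also active in stem cells, rose by 3.64 ± 0.10, from 1.79 to 13.4 CPM in tissue to 35.5 to 99.0 CPM in ES–LB. Arc, known from neurons, rose by 2.64 ± 0.12, and Cyr61, a secreted matrix protein gene, by 2.56 ± 0.14 (SE). Egr4, the fourth Egr gene, was at 1.14 to 2.80 CPM in ES–LB and at no more than 0.130 CPM in tissue. Those that fell by most were Dusp2 by 1.77 ± 0.12, Ctgf by 1.44 ± 0.09 and Dusp5 by 1.36 ± 0.13 (SE), of which the Dusp genes encode phosphatases that switch MAP kinases off. Ctgf means were 4.73 and 4.34 CPM in ES–FLB and ES–HLB, 5.15 to 8.37 CPM in the limb bud groups and 19.4 to 63.0 CPM in TB, BA and Ca. Dusp5 means were 1.07 and 1.14 CPM in ES–FLB and ES–HLB and ran from 1.51 CPM in BA to 10.97 CPM in early FLB.

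**Figure D5:**
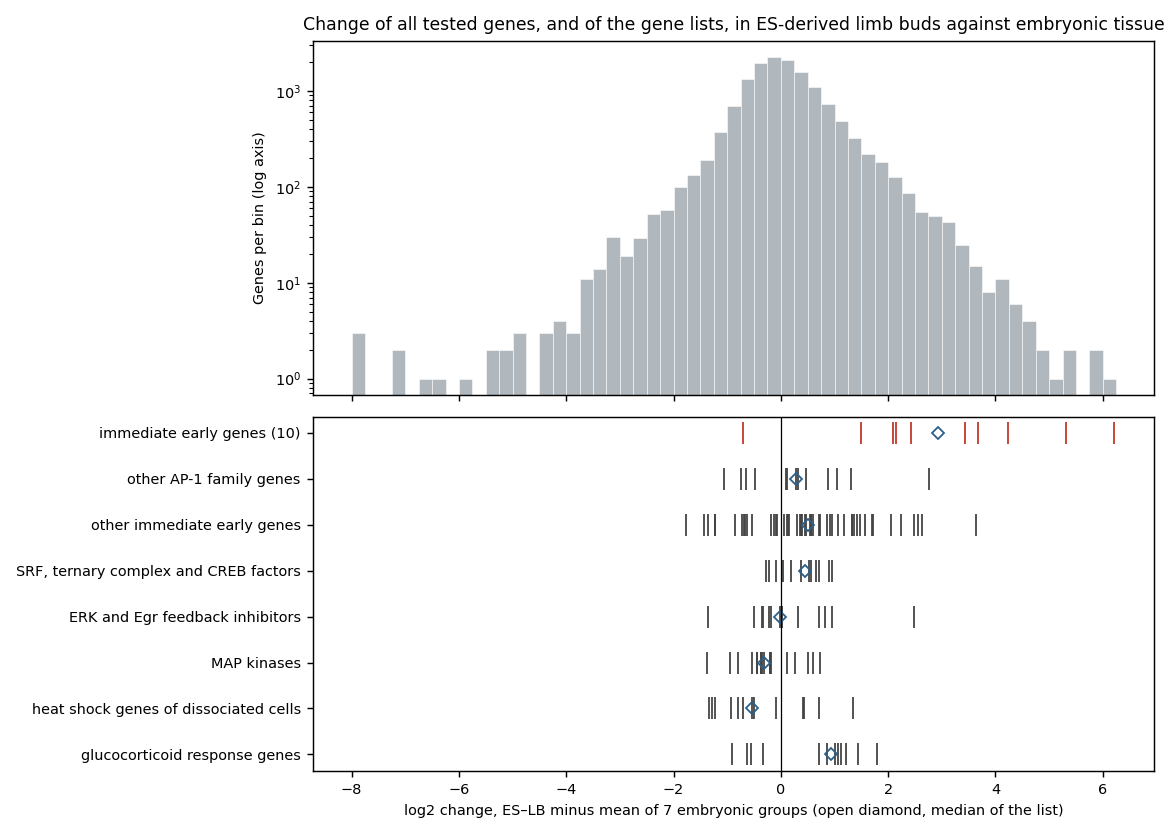
Upper panel, number of genes per bin of log2 change (bins of 0.25, log axis) between ES–LB and the mean of the 7 embryonic groups for all 14438 genes tested. Lower panel, the change of each tested gene of the 10 members (red ticks) and of 7 related lists (dark ticks), with the list median as an open diamond; 9 of 10 members lie to the right of 1 and Egr1 is the rightmost gene of all.

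Few genes of the machinery that acts on these promoters changed 2-fold against all tissue. In lists this short, such counts lie near the shares of all genes tested (11.4% higher and 7.13% lower). None of the 12 SRF, ternary complex and CREB factors was at least 2-fold changed. At adjusted p alone 8 were higher (41.2% of all genes tested) and 3 lower (41.9%). The number at least 2-fold higher was 2 with deposited values, 1 with a pseudocount of 0.1 and 2 with the 4 limb bud groups as reference. It was 3 for ES–HLB against early HLB (16.1% of all genes tested) and against E10.5 HLB (14.6%). Srf itself was at 79.3 to 96.8 CPM in ES–LB and 70.7 to 193 CPM in tissue. Of 19 MAP kinase pathway genes, none was at least 2-fold higher and Mapk12 was lower by 1.37 ± 0.06 (SE). At adjusted p alone 5 of the 19 were higher (41.2% of all genes tested) and 13 lower (41.9%), with a median of -0.31. Among 13 feedback inhibitors, Zfp36, whose product destabilizes such messages, rose by 2.48 ± 0.10 and Dusp5 fell, and the Egr corepressors Nab1 and Nab2 were higher by 0.95 ± 0.06 and 0.82 ± 0.06 (SE), under 2-fold. Of the 13, 5 passed as higher and 6 as lower at adjusted p alone, with a median of -0.01. Against early FLB, ES–FLB had 3 at least 2-fold higher (17.1% of all genes tested) and 4 lower (11.4%). Against early HLB, ES–HLB had 4 higher (16.1%) and 1 lower (8.91%). These are RNA levels and say nothing of kinase activity.

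Heat shock genes are also known to rise on dissociation. Of 13 tested, 1 was at least 2-fold higher (11.4% of all genes tested) and 3 lower (7.13%), and their median was -0.53. Hspa1b rose by 1.34 ± 0.20, at 2.21 to 4.60 CPM in ES–LB, while Hsp90aa1, Hspd1 and Hspe1 fell by 1.35 ± 0.04, 1.29 ± 0.03 and 1.23 ± 0.03 (SE). Genes known to respond to glucocorticoids, given as hydrocortisone in the culture, had 6 of 12 at least 2-fold higher (11.4% of all genes tested). Their median was 0.93. Against Ca alone 1 was at least 2-fold higher (14.6%) and 1 lower (16.8%), with a median of -0.11. Some genes of this list are also counted among the other immediate early genes. Against all tissue Nr3c1, the receptor, rose by 1.80 ± 0.08, Mt1 by 1.44 ± 0.11 and Klf9 by 1.21 ± 0.10 (SE). Fkbp5 was lower by 0.91 ± 0.04 and Tsc22d3 by 0.34 ± 0.04 (SE), both under 2-fold. The part of dissociation and of hydrocortisone in these levels was not tested.

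Markers of other cell types differed between the sorted cells and whole tissue, where 41.2% of all genes tested passed as higher and 41.9% as lower without the 2-fold limit. Sums of 6 markers each in ES–LB and in tissue were 25.4 to 43.7 and 254 to 975 CPM for endothelial cells, with all 6 passing as lower, and 5.61 to 160.4 and 2215 to 33593 CPM for erythroid cells, again with all 6 lower. Macrophage markers summed to 1.09 to 4.27 and 1.65 to 29.5 CPM, with 5 of 6 lower and Ptprc at no more than 0.13 CPM in ES–LB. Epithelial markers summed to 95.4 to 196.5 and 95.5 to 414 CPM with 4 of 6 lower and Krt5 higher, and cardiomyocyte markers to 3.13 to 5.23 and 0.513 to 16221 CPM with all 6 lower. The mean of the tissues includes Ca, and against early HLB and each E10.5 limb bud 3 of 6 cardiomyocyte markers were higher. Neural markers summed to 46.6 to 74.7 and 9.27 to 169.9 CPM with 3 of 6 higher. They were higher for 4 or 5 of 6 against the limb buds and lower for 4 of 6 against TB. Pluripotency markers summed to 16.0 to 97.7 and 0.350 to 15.3 CPM with all 6 higher, of which 5 reached the filter only through ES–LB and so had to differ. The part of these cells in the levels of the immediate early genes was not tested.

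Over the 9 group means, 9 members had Pearson r between 0.83 and 0.97 with the mean standardized profile of the 10, which each helps to make, and Atf3 had -0.09. Among all other genes with at least 5 CPM in some group, the 10 most like that profile were Ptger3, Glg1, Lmf2, Thy1, Tcf25, Ifi27l1, 4933403G14Rik, A930001N09Rik, Eda2r and H2-T9, with r between 0.979 and 0.990. The points of each r are 9 groups, of which 2 are high, so that any gene high in ES–LB and even elsewhere scores well. Thy1, a surface glycoprotein gene, had means of 83.3 CPM in ES–FLB and 70.8 in ES–HLB and between 0.235 and 2.61 CPM in the embryonic groups. Ptger3, a prostaglandin receptor gene, had 6.89 and 4.14 CPM and between 0.241 and 1.51 CPM.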

How the data were processed

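RNA was sequenced from 27 libraries in 9 groups (TruSeq stranded mRNA kit, single-end reads, HiSeq). Per the labels and the study's methods, the authors aligned the reads with HISAT2 2.0.4 to mm10 with RefSeq genes and counted them per gene with Cuffdiff on UCSC transcripts, and edgeR 3.16.2 is among their tools. The 1 table holds CPM values as deposited by the authors: each column sums to 1000000, and in the 26 libraries used 95.7 to 99.5% of the values up to 20 reads were within 0.1 of a whole number of reads. Because the rest were not whole, a test on counts was not run, and limma 3.58.1 (trend and robust, R 4.3.3) was fitted on log2(scaled CPM + 0.5) in one model of 9 group means, for genes with at least 1 CPM in at least 3 libraries. Libraries were scaled by a trimmed mean of log ratios (30% and 5% trimmed; factors 0.904 to 1.07). P-values were adjusted over all 14438 genes tested by Benjamini-Hochberg at 0.05, and 2-fold calls need a log2 change of 1. The fold changes understate low genes because of the 0.5 CPM added. The script was tested on simulated data.

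Replicate 2 of E10.5 HLB was left out. The value of 3 reads was 0.135 to 0.541 CPM, below which a level was not told from 0, and intervals and floors cover counting error only. The members and lists, and the rule for named genes, were chosen with earlier results of these data known. All 10 members are named; of the other lists, up to 3 genes in each direction with the largest change among those called at least 2-fold, and genes that mark a list's role. Batf, Egr4, Dusp5, Hspa1b, Srf, Nab1, Nab2, Fkbp5, Tsc22d3, Thy1 and Ptger3 were named for their role, as the only genes called in a direction or for the likeness of their profile. Sequences are RefSeq promoter windows (GRCm38.p6, 250 bases before the start), matched by symbol for 7 of 10 members. Alternatives were another scaling, pseudocount, filter or limma setting, a replicate block, the 27th library, the groups used, and each library left out.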

Additional observations from a re-analysis of the deposited data

Results flagged for a closer look

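In the main fit, Ier2 was the only member to pass a test of whether the rise from early limb bud to ES–LB differed between the limb types. The log2 change in ES–HLB against early HLB minus that in ES–FLB against early FLB was -0.59 ± 0.12 (SE; limma, adjusted p = 0.000487). Ier2 held 597, 493 and 642 CPM in ES–FLB and 380, 406 and 429 CPM in ES–HLB, without overlap, and 101 to 108 CPM in early FLB and 105 to 115 CPM in early HLB, which overlapped. The interaction passed for 20.1% of all genes tested, so 1 of 10 members lies below that share. Ier3, Egr1, Junb and Egr3 had larger differences (0.76, 0.66, -0.64 and -0.61 on the log2 scale). These did not pass, with SE of 0.39, 0.56, 0.28 and 0.44 against 0.12 for Ier2. Junb passed when only the groups compared were fitted (limma, adjusted p = 0.0356). Erythroid and pluripotency marker sums also differed between ES–FLB and ES–HLB, and their part in this was not tested.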

How the results depend on the processing

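The 9 members higher and Atf3 lower against all embryonic tissue kept their direction and their side of the threshold in all 369 values from the alternatives that gave one. Fold sizes moved with the pseudocount: from 3.45 (pseudocount 1) to 5.72 (0.1) for Egr2, from 1.57 to 3.36 for Egr3, from 3.07 to 4.78 for Fosb, and from 6.07 to 6.32 for Egr1. Over all comparisons, 4262 of 4310 values kept direction and side, 23 lost and 8 gained a call, and 17 changed sign, none of them with a call in either fit. Members passing from early to E10.5 HLB fell from 2 to 1 with deposited values and without trend and robust, and members with a limb-type difference rose from 1 to 2 when the fit held only the groups compared. Without scaling, the median change of all genes moved from 0.02 to 0.22 for ES–FLB against early FLB, from 0.03 to 0.18 for ES–HLB against early HLB and from 0.04 to 0.20 against Ca. Counts of the related lists against all tissue moved by over 1.5 times for other AP-1 genes lower (1 to 0 with deposited values, pseudocount 1, the 5 CPM filter, or without replicate 2 of ES–HLB), SRF and CREB factors higher (0 to 1 or 2), feedback inhibitors higher (1 to 2 with deposited values or limb buds as reference), heat shock genes higher (1 to 2 with pseudocount 0.1, 0 with the 5 CPM filter) and glucocorticoid genes lower (0 to 2 with limb buds as reference). The cause was not tested.

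Leaving out each library in turn gave 9 to 9 members against all embryonic tissue, 9 to 10 for ES–FLB against early FLB, 8 to 9 against Ca, 3 to 4 for ES–HLB against ES–FLB, 0 to 2 for E10.5 HLB against early HLB and 1 to 3 for the limb-type difference, and no other count moved. Sign changes without a call were Fosb at -0.00972 for the limb-type difference (pseudocount 1), and, with all 27 libraries, Ier2 at -0.00104 for E10.5 FLB and Egr2 at -0.0364 for E10.5 HLB against early. With single libraries left out the values ran from -0.094 to 0.205 for Ier3 against Ca, -0.174 to 0.0944 for Atf3 and -0.27 to 0.36 for Fosb in the limb-type difference, -0.50 to 0.13 for Fosb in ES–HLB against ES–FLB, -0.24 to 0.64 for Fosb, -0.0886 to 0.288 for Egr3 and -0.0389 to 0.328 for Egr2 in E10.5 FLB against early FLB, and -0.18 to 0.26 for Egr2, -0.23 to 1.06 for Fosb, -0.13 to 0.55 for Ier3 and -0.27 to 0.50 for Egr3 in E10.5 HLB against early HLB.

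Same-numbered libraries of different groups did not deviate together (mean r 0.02; over 0.1 in 1 of 36 group pairs). With the replicate number as a block, 9 members passed against all embryonic tissue, and no count of members changed. The edgeR and DESeq2 alternatives were not run, since not all values were whole reads. At these depths Egr2 and Egr3 in tissue lay mostly below 3 reads, so differences among tissues were not detectable for them.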
